A study of Mus musculus with 2 samples.

Results

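The mRNAs described here encode 10 immune checkpoint receptors and ligands, taken by name from the 32291 genes of the expression table. The 6 receptors are *Pdcd1* (PD-1), *Ctla4*, *Lag3*, *Havcr2* (TIM-3), *Tigit* and *Icos*, and the 4 ligands are *Cd274* (PD-L1), *Pdcd1lg2* (PD-L2), *Cd80* and *Cd86*. They were followed across 11 cell types and 2 libraries of colitis-associated colon tumors (CACs), and all 10 were detected in both libraries. CACs were induced in mice of 6 to 10 weeks with 10 mg/kg of the carcinogen azoxymethane (AOM) and 5-day cycles of dextran sodium sulfate (DSS), at 2.5% in the first cycles and 2% in the third, separated by 16 days of water. Mice were sacrificed on day 110. The library Mir34a_F/F came from mice with floxed *Mir34a* alleles and no Cre, and the library Mir34a_Mye_KO from littermates that also carried LysM-Cre, which is active in the myeloid lineage. Both groups were on a C57Bl/6 background and received AOM and DSS, so neither library is from untreated tissue. For each genotype 6 to 8 tumors of 3 mice were pooled into 1 library. Differences between the genotypes were therefore not tested. The 95% intervals given throughout cover counting error only, and not the spread between mice or between cells.

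T cells are activated when the antigen receptor is engaged together with CD28, which binds CD80 and CD86 on antigen-presenting cells. CTLA-4 competes for the same ligands with higher affinity and limits activation, whereas ICOS is an activating relative of CD28. PD-1, bound by PD-L1 or PD-L2, and LAG-3, TIM-3 and TIGIT restrain T cells that stay activated, as in chronic inflammation and tumors. In the genome (RefSeq, GRCm38.p6) *Ctla4* (chr1:60909025-60915832) and *Icos* (chr1:60960773-61000322) lie 44.9 kb apart. *Cd274* (chr19:29362107-29388095) and *Pdcd1lg2* (chr19:29410919-29472927) lie 22.8 kb apart. *Cd86* and *Cd80* are both on chromosome 16.

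Because the libraries differ by myeloid *Mir34a*, the annotated 3′ UTR of every member was searched for the reverse complement of the seed of miR-34a-5p, the letters CACTGCC. The capitals below mark the seed, bases 2 to 8 of the microRNA, and the match to it in the transcript.
mmu-miR-34a-5p: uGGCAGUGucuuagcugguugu
*Havcr2* 3′ UTR: actgtgcccaaCACTGCCagactcttctt
The microRNA, at chr4:150068473-150068494 on the plus strand (RefSeq, GRCm38.p6), is shown because it is the one deleted by design. The *Havcr2* stretch, at chr11:46480561-46480589 on the plus strand (GENCODE vM21, GRCm38), is shown because it holds the match found in 1 of the 10 members. It starts at base 1126 of a 3′ UTR of 1809 bases and is followed by an A. The other 9 members held no match in the one 3′ UTR searched for each, whose lengths ran from 81 bases for *Lag3* to 2683 bases for *Cd274*. Over all 20728 genes of the table with an annotated 3′ UTR, 14.3% held the letters. A match is a description of the sequence and does not show binding. Sites with other or fewer letters were not searched, so a missing match does not show that a member is no target. The paper, citing earlier work, calls PD-L1, the product of *Cd274*, a miR-34a target.

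The libraries held 20312 cells with a median of 4787 UMIs (Mir34a_F/F) and 18571 cells with a median of 7716 UMIs (Mir34a_Mye_KO), where unique molecular identifiers (UMIs) count captured mRNA molecules. Median depth was 1.11 to 5.69 times higher in Mir34a_Mye_KO, depending on the cell type. The libraries shared 96 cell barcodes. The summed UMIs of lineage markers per 10000 UMIs (Mir34a_F/F first) were 21.4 and 21.2 in T cells and at most 2.96 in any other cell type. They were 60.3 and 68.1 in macrophages and at most 10.2 elsewhere, and 12.5 and 14.5 in dendritic cells and at most 1.69 elsewhere. Epithelial markers were less confined, at 80.6 and 56.9 in epithelial cells, 24.6 and 12.8 in T cells, and 33.9 and 18.4 in neutrophils. A B-cell marker UMI was found in 47.6% and 94.1% of T cells and in 56% and 94.9% of macrophages. The part of such RNA in the levels below was not tested. Neutrophil markers were at 1557 and 1107 in neutrophils, but also at 543 and 431 in basophils, which held mast cell markers at 63.7 and 377 (838 and 831 in mast cells). Macrophages were checked for features of the genotype. The features for the mature, hairpin and stem-loop parts of *Mir34a* and for Cre had 0 UMIs in both libraries and could not tell them apart. LysM-Cre is inserted into *Lyz2* and disrupts it, and *Lyz2* had 3892 UMIs in Mir34a_F/F and 1379 in Mir34a_Mye_KO, a log2 ratio of -2.27 (-2.36 to -2.18), the direction of the labels. The feature combining Cre and *Lyz2* had 451 and 172 UMIs, a ratio of -2.16 (-2.42 to -1.91) close to that of *Lyz2*. The primary *Mir34a* transcript had 133 and 462 UMIs, a ratio of 1.03 (0.74 to 1.31), and whether the counted part of it lies inside the deleted segment is not given in the sources used here.

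Expression is given as a level, the UMIs of an mRNA per 10000 UMIs of all cells of a type. Levels are compared between cell types for the same mRNA, not between mRNAs. In each pair of values Mir34a_F/F comes first. *Pdcd1*, which encodes the receptor PD-1, had its highest level in T cells, 0.716 (0.671 to 0.763) and 0.707 (0.673 to 0.741). T cells held 79.8% and 86.8% of all its UMIs. In epithelial cells, which served as the background type, the level was 0.0171 and 0.00914, so that T cells were 42.0-fold and 77.3-fold higher. A *Pdcd1* UMI was found in 17.7% and 25.2% of T cells (median 3548 and 8043 UMIs) and in 1.21% and 0.689% of epithelial cells (median 5316 and 6623 UMIs). After every cell was thinned to 1000 UMIs, the share of T cells was 6.49% (5.64 to 7.43) and 6.28%. The higher share in Mir34a_Mye_KO at full depth was thus not seen at equal depth.

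*Icos* was likewise a T-cell mRNA, at 5.82 (5.70 to 5.96) and 7.73 (7.62 to 7.84), 56.9-fold and 72.8-fold over epithelial cells. *Tigit*, whose product binds the poliovirus receptor, reached 0.302 (0.273 to 0.333) and 0.393 (0.369 to 0.419) in T cells, 38.0-fold and 39.2-fold over epithelial cells. T cells held 71.3% and 77.2% of its UMIs. B cells followed at 0.0589 (0.0419 to 0.0805) and 0.0496 (0.0404 to 0.0602), from 39 and 101 UMIs, and fibroblasts of Mir34a_Mye_KO held 0.118 from 8 UMIs. *Tigit* was near its background in dendritic cells (5 and 9 UMIs) and macrophages (30 and 37 UMIs), at levels of 0.0111 to 0.0171 beside 0.00794 and 0.010 in epithelial cells.

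*Ctla4* also peaked in T cells, at 7.47 (7.33 to 7.62) and 8.94 (8.82 to 9.06), and was found in 64.6% and 75.8% of them, beside 15.3% and 19.4% of epithelial cells. Unlike *Pdcd1* and *Icos*, it had a second cell type, with levels in B cells of 1.48 (1.39 to 1.57) and 1.88 (1.82 to 1.94). The UMIs of *Ctla4* were set beside those of *Icos*. *Ctla4* had 1.28 and 1.16 UMIs per *Icos* UMI in T cells, but 7.90 (6.54 to 9.60) and 11.1 (9.94 to 12.4) in B cells. Other cell types were above T cells too, such as epithelial cells (2.33 and 2.52) and dendritic cells (2.36 and 2.05). Endothelial cells, with few UMIs, had 6.4 (2.48 to 21) and 4.6 (1.71 to 15.5). Basophils (0.714 and 0.8) and fibroblasts of Mir34a_Mye_KO (1.06) were below T cells. The part of T-cell RNA in the B-cell level of *Ctla4* was not tested. After these values were seen, B cells were split by a UMI of *Sdc1* or *Prdm1*, which mark plasma cells. Those with such a UMI, 40.5% and 68.8% of B cells, held *Ctla4* at 1.84 and 2.04, whereas the others held 0.647 and 0.427. *Cd28*, the activating counterpart, split the same way, with 1.10 and 1.41 against 0.261 and 0.0695. *Icos* did not separate the groups in Mir34a_F/F (0.190 and 0.181), and in Mir34a_Mye_KO it was 0.175 and 0.119, with an interval of their log2 ratio of -0.04 to 1.22.

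*Lag3*, a receptor for MHC class II, showed no clear cell type. Its level in T cells was 0.256 (0.229 to 0.284) and 0.200 (0.183 to 0.219), and that in dendritic cells 0.223 (0.172 to 0.284) and 0.215 (0.181 to 0.254), with overlapping intervals. In 60 fibroblasts of Mir34a_Mye_KO it was higher, at 0.368 (0.238 to 0.543) from 25 UMIs, and in 48 basophils of Mir34a_F/F it was 0.256 (0.0832 to 0.598) from 5 UMIs. T cells were only 2.61-fold and 3.33-fold over epithelial cells, and epithelial cells held 52.8% and 26.5% of all *Lag3* UMIs. At 1000 UMIs per cell, *Lag3* was detected in 2.40% and 1.97% of T cells and in 1.05% and 0.536% of epithelial cells. Of the members, *Lag3* had the smallest ratio to its background type.

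*Havcr2*, which encodes TIM-3, was highest in dendritic cells and not in T cells. Dendritic cells held it at 2.07 (1.91 to 2.24) and 2.08 (1.97 to 2.19). Basophils followed with 1.43 (0.953 to 2.07) and 1.51 (1.17 to 1.92), from 48 and 40 cells that also held the neutrophil and mast cell markers given above, mast cells with 0.998 and 1.39, and macrophages with 0.994 and 1.20. T cells came next, with 0.687 (0.643 to 0.733) and 0.944 (0.905 to 0.984). By number of molecules macrophages were the main source, with 44.7% and 40.4% of all *Havcr2* UMIs. Counting error did not separate basophils from dendritic cells or mast cells in Mir34a_F/F, nor from mast cells in Mir34a_Mye_KO. The part of neutrophil and mast cell RNA in the basophil values of *Havcr2*, *Cd274* and *Pdcd1lg2* was not tested.

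Among the ligands, *Cd274* was the most widespread. Dendritic cells held 3.13 (2.93 to 3.34) and 3.93 (3.78 to 4.09), macrophages 2.18 and 3.19, neutrophils 1.79 and 3.68, and basophils 2.20 and 2.53. Neutrophils stood below macrophages in Mir34a_F/F and above them in Mir34a_Mye_KO. B cells followed with 1.58 and 2.71, mast cells with 1.42 and 1.51, and T cells with 0.901 and 1.21. Epithelial cells, which can make PD-L1, held only 0.160 and 0.241. Both levels lay within the interval of the erythroid cells that served as background (0.139 to 0.637 and 0.0456 to 0.646). With only 8 and 3 *Cd274* UMIs in erythroid cells, an epithelial level above background was not detectable at this depth, although single epithelial cells held up to 36 and 42 UMIs. By number of molecules, macrophages held 40.6% and 36.9% of its UMIs.

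*Pdcd1lg2*, the neighbour of *Cd274*, had a different order of cell types. Mast cells led with 1.88 (1.74 to 2.04) and 1.93 (1.84 to 2.03), followed by dendritic cells with 1.15 and 1.24 and basophils with 1.28 and 1.04. Only in Mir34a_F/F did the interval of mast cells over basophils include 0 on the log2 scale (-0.02 to 1.19). Macrophages held no more than 0.223 and 0.266. Hence mast cells had 0.757 (0.669 to 0.855) and 0.782 (0.727 to 0.841) *Cd274* UMIs per *Pdcd1lg2* UMI, whereas macrophages had 9.79 and 12.0. The next lowest ratios were those of T cells (1.72 and 2.07) and basophils, at 1.72 (1.03 to 2.94) and 2.43 (1.71 to 3.48). Fibroblasts, endothelial and erythroid cells had too few UMIs to place.

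*Cd80* and *Cd86* encode the paired ligands of CD28 and CTLA-4 but were distributed differently. *Cd80* was found in dendritic cells (2.59 and 3.05), macrophages (1.40 and 1.71) and neutrophils (1.38 and 2.26). Basophils held 0.41 from 8 UMIs and 1.0 from 45 UMIs, and the part of neutrophil RNA there was not tested. Macrophages and neutrophils were alike in *Cd80* in Mir34a_F/F, and neutrophils were higher in Mir34a_Mye_KO. *Cd86* was found in dendritic cells (4.18 and 6.68), macrophages (3.22 and 7.17) and B cells (1.54 and 1.32), with little in neutrophils (0.354 and 0.769). Neutrophils accordingly had 0.256 and 0.340 *Cd86* UMIs per *Cd80* UMI, macrophages 2.31 and 4.18, and B cells 7.99 and 8.33. Mast cells, with *Cd86* at 0.494 and 1.05, had ratios of 5.75 (3.83 to 8.92, from 28 *Cd80* UMIs) and 10.5 (8.39 to 13.2). Macrophages held 61.7% and 67.6% of all *Cd86* UMIs.

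**Figure D1:**
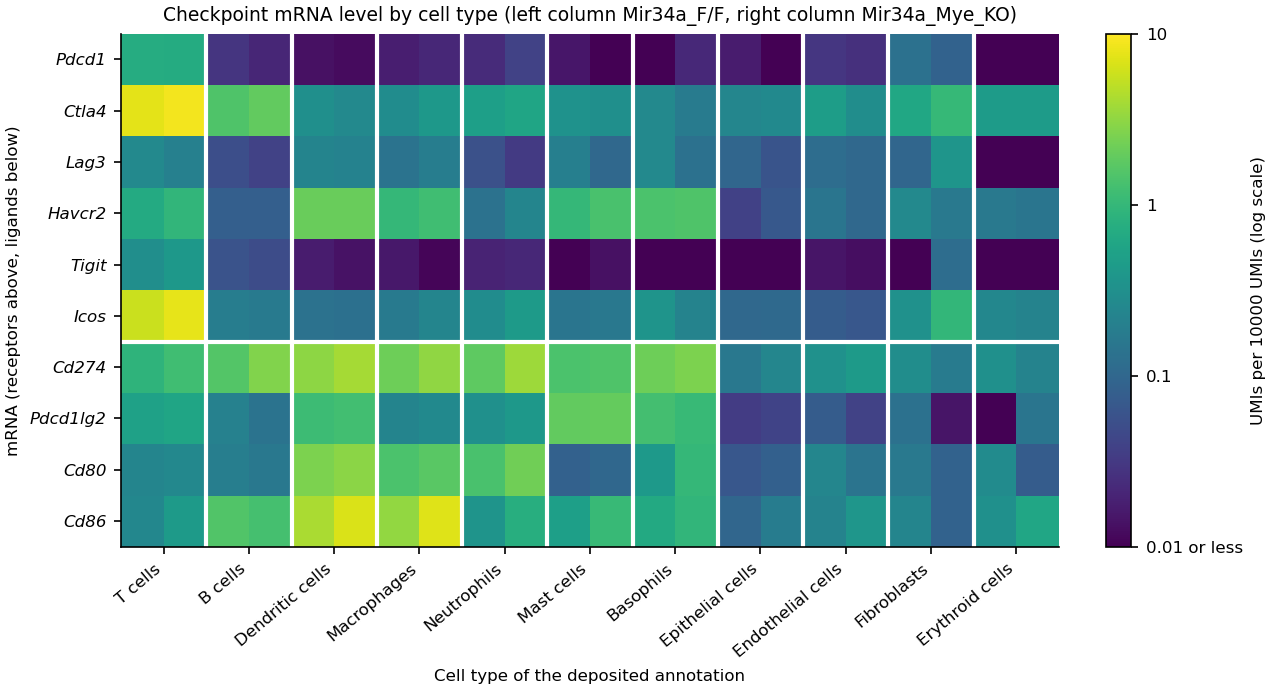
Level of each member (rows, receptors above the line and ligands below) in each of the 11 cell types, with Mir34a_F/F in the left and Mir34a_Mye_KO in the right column of a pair, as UMIs per 10000 UMIs on a log color scale. *Pdcd1*, *Ctla4*, *Tigit* and *Icos* are brightest in T cells, *Havcr2* in dendritic cells, *Pdcd1lg2* in mast cells, *Cd80* in dendritic cells, and *Cd86* in dendritic cells and macrophages.

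Some cell types take a different place when cells rather than molecules are weighted equally. Among cell types with at least 20 UMIs in each library and over both libraries together, the mean over cells put *Cd274* highest in neutrophils, *Cd86* in macrophages and *Lag3* in dendritic cells, whereas the leading type of the other 7 members was the same. The order of dendritic cells, macrophages and neutrophils for *Cd274* and *Cd86* therefore depends on how cells are weighted. Fibroblasts of Mir34a_Mye_KO, 60 cells, held *Ctla4* at 1.03 and *Icos* at 0.971. Of their 70 *Ctla4* UMIs, 35 were in 1 cell, and T-cell markers were also higher there than in the fibroblasts of Mir34a_F/F (2.96 against 1.18 UMIs per 10000). The part of T-cell RNA in these values was not tested.

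T cells were next divided by mRNAs that are no members. Cells with a *Foxp3* UMI, the factor that defines regulatory T cells, numbered 465 and 598. CD4 cells without *Foxp3* numbered 600 and 763 and CD8 cells 208 and 188. The cells called γδ T cells here, 359 and 356, had a UMI of *Trdc* or a γ-chain constant gene and none of *Cd4*, *Cd8a*, *Cd8b1* or *Foxp3*. A further 1448 and 727 cells held none of these mRNAs and had a lower median depth (2704 and 4463 UMIs) than the gated ones. *Foxp3* was detected in 15.1% and 22.6% of T cells, and in 5.76% (4.95 to 6.65) and 7.42% (6.45 to 8.48) after thinning to 1000 UMIs. The group names stand for gates on detected mRNAs and not for proven cell types. *Cd3e* was detected in 74.7% and 70.8% of the γδ group, 71.6% and 80.3% of *Foxp3*-positive cells and 85.1% and 87.8% of CD8 cells. It was detected in 81% and 88.3% of CD4 cells, but only in 45.2% and 36.5% of cells with none of the gating mRNAs. Its level in the latter was 3.06 and 1.72, so their identity as T cells is less well marked.

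*Ctla4* was graded across these groups. It stood at 12.7 and 16.0 in *Foxp3*-positive cells, at 10.0 in CD4 cells of both libraries, at 5.28 and 5.13 in γδ T cells and at 2.37 and 2.08 in CD8 cells. *Foxp3*-positive cells were thus 1.27-fold and 1.59-fold over CD4 cells. With a gate of at least 2 UMIs, only 214 and 411 cells stayed *Foxp3*-positive. Regulatory T cells with no captured *Foxp3* UMI would be placed in the other groups, CD4 cells among them. Their part in the differences between *Foxp3*-positive and CD4 cells, for *Ctla4* and for *Icos*, was not tested. *Icos* separated CD4 from CD8 cells (7.65 and 9.22 against 1.84 and 2.14) but hardly *Foxp3*-positive from CD4 cells, with log2 ratios of -0.06 (-0.16 to 0.03) and 0.09 (0.04 to 0.14).

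*Pdcd1* had another order. Its highest level was in γδ T cells, at 1.43 and 1.39, followed by *Foxp3*-positive cells at 0.822 and 0.919. CD8 cells held 0.656 and 0.464 and CD4 cells 0.441 and 0.418, and CD8 cells of Mir34a_F/F were not separated from *Foxp3*-positive ones by counting error. *Foxp3*-positive cells were lower than γδ T cells by log2 ratios of -0.80 (-1.07 to -0.53) and -0.59 (-0.77 to -0.42), so that the order of the first pair was the same in both libraries. Across the 22 levels of cell type and library, the mRNA with the pattern most like *Pdcd1* was *Il23r*, the receptor for interleukin 23 (Pearson r = 0.969 over levels that share libraries and depth).

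*Tigit* was lowest in γδ T cells (0.163 and 0.199) and highest in *Foxp3*-positive cells (0.435 and 0.691), with γδ T cells at the other end of the order than for *Pdcd1*. CD8 cells (0.203 and 0.223) overlapped with γδ T cells in counting error. In Mir34a_F/F the interval of *Foxp3*-positive cells (0.354 to 0.53) also overlapped that of CD4 cells, at 0.373 (0.307 to 0.448). *Havcr2* was lowest in CD8 cells, with 0.289 and 0.141, and *Lag3* highest in CD8 cells of Mir34a_F/F (0.414) and in *Foxp3*-positive cells of Mir34a_Mye_KO (0.311). *Lag3* rested on 47 to 172 UMIs in each gated group, and its order differed between the libraries. With gates of at least 2 UMIs, CD4 cells (0.422) and not CD8 cells (0.331) were highest in *Lag3* in Mir34a_F/F. *Cd80*, better known as a ligand, stood at 0.396 and 0.472 in *Foxp3*-positive cells, at 0.157 and 0.179 in CD4 cells and at 0.244 and 0.337 in cells with none of the gating mRNAs. Its level in epithelial cells, the background type, was 0.0651 and 0.0831.

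**Figure D2:**
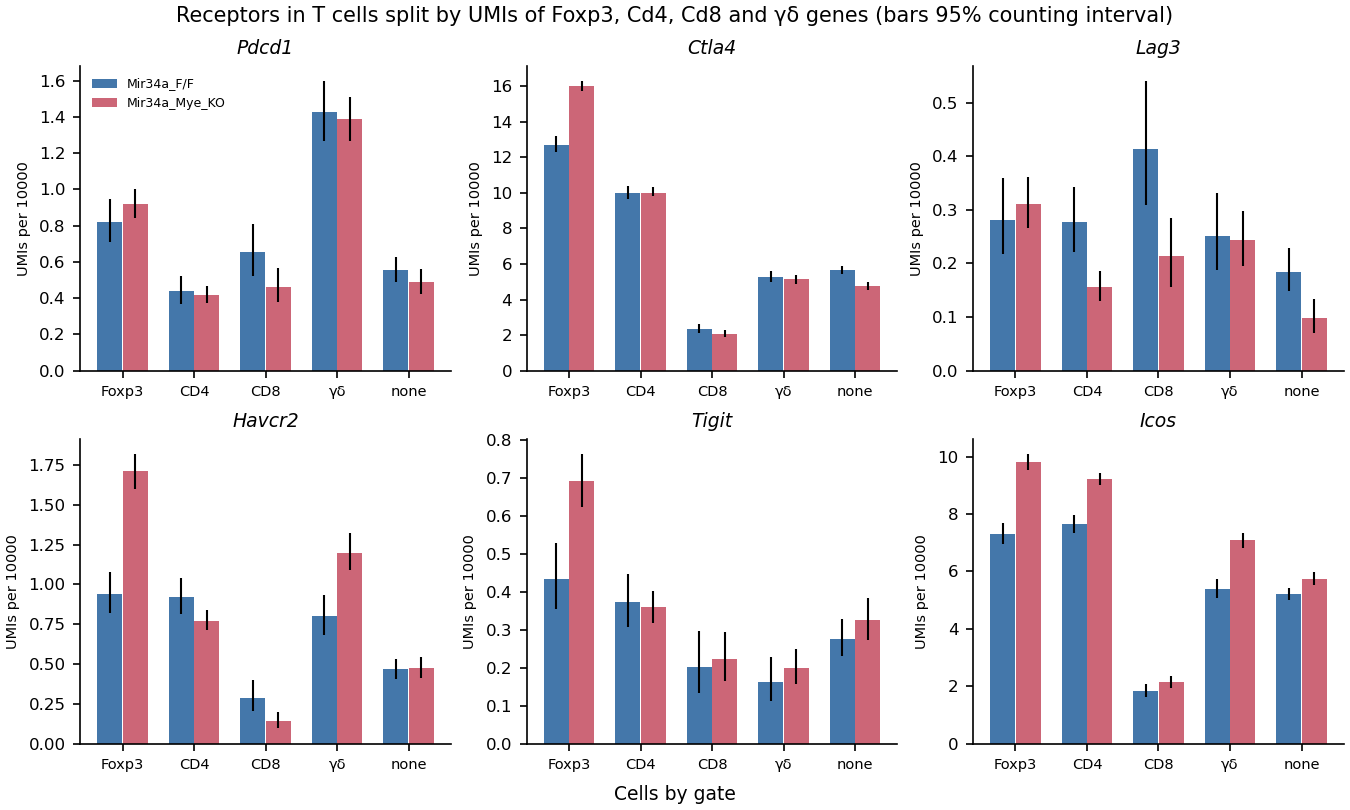
Level of each receptor (UMIs per 10000 UMIs, axes from 0) in T cells with a *Foxp3* UMI, CD4, CD8 and γδ T cells and cells with none of these mRNAs, for Mir34a_F/F (blue) and Mir34a_Mye_KO (red), with 95% counting intervals. Groups are gates on detected mRNAs. *Ctla4* steps down from *Foxp3*-positive to CD8 cells, *Pdcd1* is highest in the γδ gate, and *Havcr2* and *Tigit* of *Foxp3*-positive cells are higher in Mir34a_Mye_KO.

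The groups also showed where the libraries differed. Over all T cells, *Ctla4* had a log2 ratio of Mir34a_Mye_KO over Mir34a_F/F of 0.26 (counts of 10021 and 21432 UMIs). Within groups it was 0.33 (0.27 to 0.39) in *Foxp3*-positive cells, 0.00 (-0.06 to 0.06) in CD4 cells, -0.04 (-0.15 to 0.07) in γδ T cells and -0.19 (-0.40 to 0.02) in CD8 cells. In cells with none of the gating mRNAs it was -0.25 (-0.34 to -0.17). At full depth the library with the higher *Ctla4* also had larger shares of *Foxp3*-positive cells and of cells with a *Cd4* UMI. After thinning to 1000 UMIs the *Cd4* shares were 8.42% (7.45 to 9.47) and 9.46% (8.37 to 10.6), with overlapping intervals. The part of these shares in the T-cell value was not tested. A gate of 1 UMI also takes in more cells of the deeper library, and its part in the values within groups was not tested.

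*Icos*, in contrast, was higher in Mir34a_Mye_KO in every one of these 5 groups, by log2 ratios of 0.14 to 0.42, of which only that of CD8 cells had an interval that included 0 (-0.01 to 0.45). *Havcr2* pointed both ways, with 0.86 (0.64 to 1.08) in *Foxp3*-positive cells and 0.59 (0.33 to 0.85) in γδ T cells, but -0.25 (-0.46 to -0.05) in CD4 cells. In CD8 cells no direction can be given for *Havcr2*. Its level was 0.289 and 0.141 there, from 37 and 31 UMIs, and 0.110 in both libraries with gates of at least 2 UMIs, and the share of CD8 cells with a UMI was 5.29% and 12.2%. *Tigit* was higher in *Foxp3*-positive cells, 0.67 (0.34 to 1.0), and near 0 in CD4 cells, -0.05 (-0.37 to 0.27). *Pdcd1* was close to equal over all T cells, -0.02 (-0.13 to 0.10). In CD8 cells it was -0.50 (-0.93 to -0.06), but with gates of at least 2 UMIs the levels of *Pdcd1*, 0.625 (0.465 to 0.822) and 0.487 (0.388 to 0.603), had overlapping intervals. Among cells of 5000 to 20000 UMIs the *Pdcd1* ratio of all T cells was 0.29.

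Some receptors were higher in T cells that held another receptor, and others were not. T cells with a *Havcr2* UMI held *Ctla4* at 13.2 and 13.8, and those without it at 6.12 and 6.72. *Lag3* was 0.459 and 0.378 in the former and 0.208 and 0.119 in the latter. In T cells with a *Pdcd1* UMI, *Ctla4* stood at 7.37 and 9.02, and in those without it at 7.50 and 8.91. The log2 ratios of these levels were -0.03 (-0.10 to 0.04) and 0.02 (-0.03 to 0.06). *Havcr2* was 1.06 and 1.48 with *Pdcd1* and 0.586 and 0.728 without it. UMIs of all 6 receptors were found in 4 of 3088 and 29 of 2649 T cells, and in 0 cells of either library after thinning to 1000 UMIs. Cells that hold a given receptor are deeper than those that do not, and levels rather than shares of cells are compared for that reason. *Havcr2* was found in 26.2% and 44.5% of *Foxp3*-positive cells and in 5.29% and 12.2% of CD8 cells. The part of the gated groups in these paired levels was not tested.

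Dendritic cells were divided by *Ccr7*, which marks their mature, migratory state. *Ccr7*-positive cells numbered 152 and 192 and *Ccr7*-negative cells 195 and 239. All 4 ligands were higher in the *Ccr7*-positive cells. *Pdcd1lg2* stood at 1.74 and 1.82 against 0.574 and 0.621, a ratio of 3.04-fold and 2.93-fold. *Cd80* stood at 3.88 and 4.34 against 1.34 and 1.67, and *Cd274* at 4.26 and 5.78 against 2.03 and 1.97. *Cd86* had the smallest difference, 1.78-fold and 1.43-fold. The receptor *Havcr2* had the reverse order, with 1.56 and 1.83 in *Ccr7*-positive and 2.56 and 2.34 in *Ccr7*-negative cells. Within the latter, cells with an *Xcr1* or *Clec9a* UMI, markers of cross-presenting dendritic cells, held *Havcr2* at 3.30 and 2.59. *Lag3* was also lower in *Ccr7*-positive cells, 0.105 and 0.129 against 0.337 and 0.307.

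Macrophages were divided by *Mrc1*, a marker of M2-like polarization, into 833 and 1223 positive and 1375 and 1378 negative cells. *Cd86* was higher with *Mrc1*, at 3.98 and 8.68 against 2.45 and 4.49, and *Cd80* was lower, at 1.16 and 1.56 against 1.64 and 1.98. The 2 ligands of the same receptors thus lay on opposite sides of the *Mrc1* split in both libraries. They were not opposed cell by cell, as *Cd86* was 3.47 and 7.97 in macrophages with a *Cd80* UMI and 2.83 and 4.75 in those without. *Ccr7* stood at 0.353 and 0.833 in *Mrc1*-negative cells, and at 0.0999 and 0.168 in cells with at least 2 *Mrc1* UMIs. The part of *Ccr7*-positive cells in the *Cd80* difference was not tested. *Lag3* was 1.91-fold and 4.54-fold higher with *Mrc1*, at 0.184 and 0.258 against 0.0963 and 0.0568. Between the libraries *Lag3* thus had log2 ratios of 0.49 (0.25 to 0.74) with *Mrc1* and -0.76 (-1.23 to -0.29) without it. *Cd274* was 1.14-fold and 1.27-fold higher with *Mrc1*, and *Havcr2* was slightly lower. *Mrc1*-positive cells were deeper (median 10915 and 18462 UMIs) than negative ones (5854 and 6140 UMIs), and the part of depth in these differences was not tested.

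**Figure D3:**
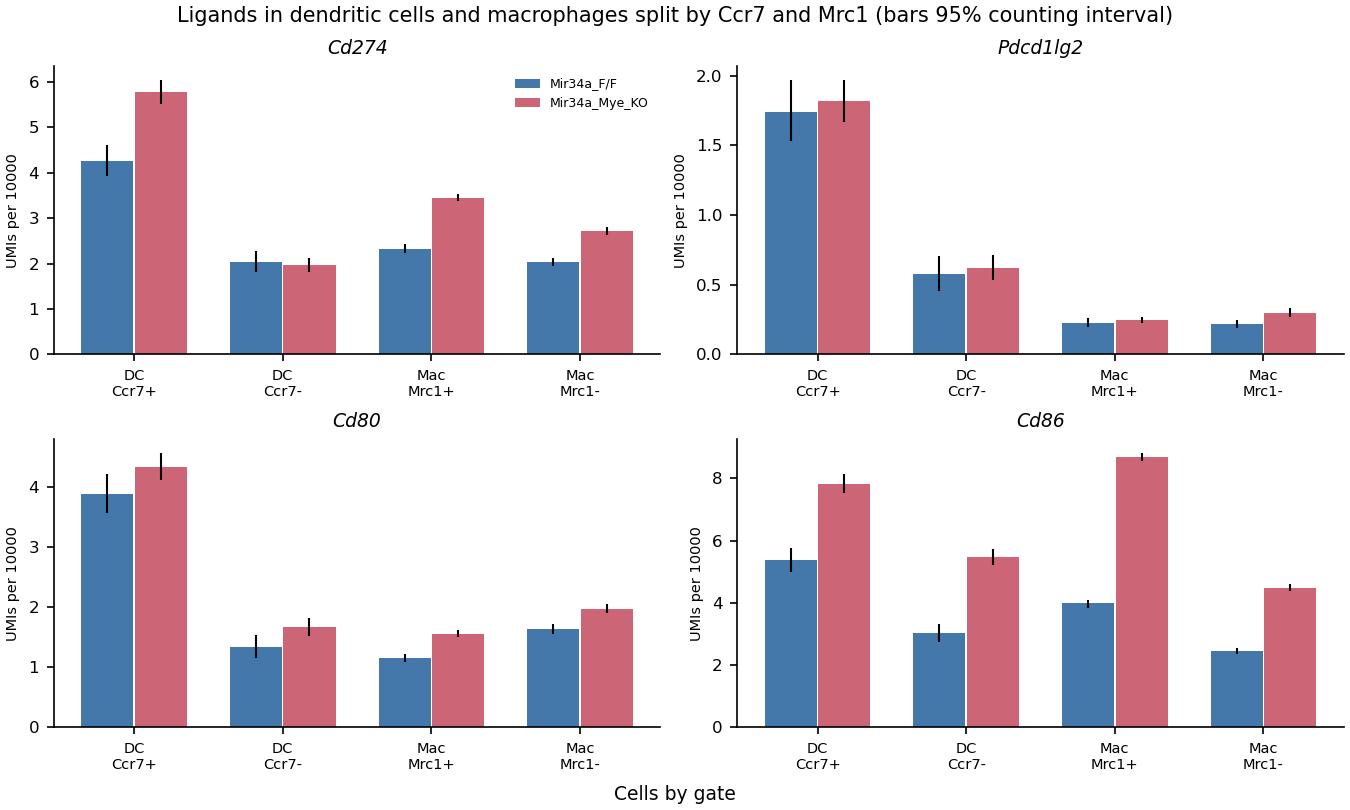
Level of the 4 ligands (UMIs per 10000 UMIs, axes from 0) in dendritic cells (DC) with and without *Ccr7* and macrophages (Mac) with and without *Mrc1*, for Mir34a_F/F (blue) and Mir34a_Mye_KO (red), with 95% counting intervals. All ligands are higher in *Ccr7*-positive dendritic cells, *Cd86* is higher and *Cd80* lower in *Mrc1*-positive macrophages, and *Cd86* is higher in Mir34a_Mye_KO in all 4 groups.

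Between the libraries, *Cd86* showed the largest difference among the ligands of macrophages and dendritic cells. In macrophages it had 6267 UMIs, a level of 3.22 (3.14 to 3.30), in Mir34a_F/F and 23821 UMIs, a level of 7.17 (7.08 to 7.26), in Mir34a_Mye_KO. The log2 ratio was 1.16 (1.12 to 1.20). It was 0.68 in dendritic cells, 1.12 in neutrophils, 1.08 in mast cells and 0.81 in T cells. In macrophages it was 1.13 with and 0.87 without *Mrc1*, and 1.23 in *Arg1*-positive cells without *Mrc1*. The size depended on the weighting of cells, with 0.63 for the mean over cells, 0.61 after thinning and 0.97 among cells of 5000 to 20000 UMIs. The one *Cd86* 3′ UTR searched, of 1493 bases, held no match to the letters CACTGCC. Whether miR-34a acts on *Cd86* was not tested.

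Since macrophages carried most *Cd86* molecules, the 7 macrophage markers were summed in the other cell types, where all 7 were detected. Their summed level was 2.31 and 1.96 in T cells (*Cd86* 0.246 and 0.432) and 1.76 and 1.58 in mast cells (*Cd86* 0.494 and 1.05). It was 2.97 and 3.32 in dendritic cells, 3.05 and 3.60 in neutrophils, 1.52 and 2.21 in epithelial cells, and 1.45 and 1.16 in B cells. In macrophages themselves it was 60.3 and 68.1, so that macrophage RNA held more *Cd86* per marker UMI in Mir34a_Mye_KO. The part of macrophage RNA in the *Cd86* ratios of the other cell types was not tested.

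*Cd274* showed its largest ratio in neutrophils, with 1002 UMIs at a level of 1.79 (1.68 to 1.91) against 3538 UMIs at 3.68 (3.56 to 3.80). The log2 ratio was 1.04, and 0.80 to 1.51 across the other ways of computing it. In macrophages it was 0.55, but 0.14 for the mean over cells and 0.13 after thinning. In dendritic cells it was 0.33, carried by *Ccr7*-positive cells (0.44, 0.31 to 0.57) more than by negative ones (-0.04, -0.25 to 0.16), and it was -0.04 among dendritic cells of 5000 to 20000 UMIs. A single dendritic cell of Mir34a_Mye_KO held 229 of its 2536 *Cd274* UMIs. Neutrophils also held more *Cd80* in Mir34a_Mye_KO, with a log2 ratio of 0.71 that was 0.71 to 0.97 under the alternatives. For *Cd80* in macrophages the ratio of 0.30 was -0.05 for the mean over cells and -0.07 after thinning, so that no direction can be given.

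*Pdcd1lg2* was nearly equal between the libraries in its leading cell type, with a log2 ratio of 0.04 in mast cells. *Havcr2*, the member with a miR-34a seed match, had log2 ratios of 0.01 in dendritic cells, 0.28 in macrophages, 0.46 in T cells, 0.48 in mast cells and 0.78 in neutrophils. Its ratio in dendritic cells was -0.61 among cells of 5000 to 20000 UMIs, and that in macrophages was -0.05 after thinning.

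In B cells the ratios mixed plasma and other cells. *Cd86* had a log2 ratio of -0.22 over all B cells, but 1.35 (1.23 to 1.48) in those without *Sdc1* and *Prdm1* and -0.53 (-0.72 to -0.33) in those with either. Over all B cells it was 3.45 among cells of 5000 to 20000 UMIs, 0.25 for the mean over cells, 0.23 after thinning and 0.06 with the 411 genes named below left out of the totals, so that no direction can be given. B cells were 5.69 times deeper in Mir34a_Mye_KO, and the part of depth in a split by 1 UMI was not tested. The level of *Cd86* was 9.21 and 0.455 in these groups of Mir34a_Mye_KO, and 3.61 and 0.656 in Mir34a_F/F. *Cd274* had log2 ratios of 0.81 and 0.58 in these groups and of 0.77 over all B cells. Among B cells of 5000 to 20000 UMIs the *Cd274* ratio was -0.14, so that its direction cannot be given either. Leaving the 411 immunoglobulin, mitochondrial and ribosomal RNA-like genes out of the totals moved every ratio of B cells by 0.29, that of epithelial cells by 0.32, and those of endothelial and erythroid cells by 0.11 and 0.27.

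**Figure D4:**
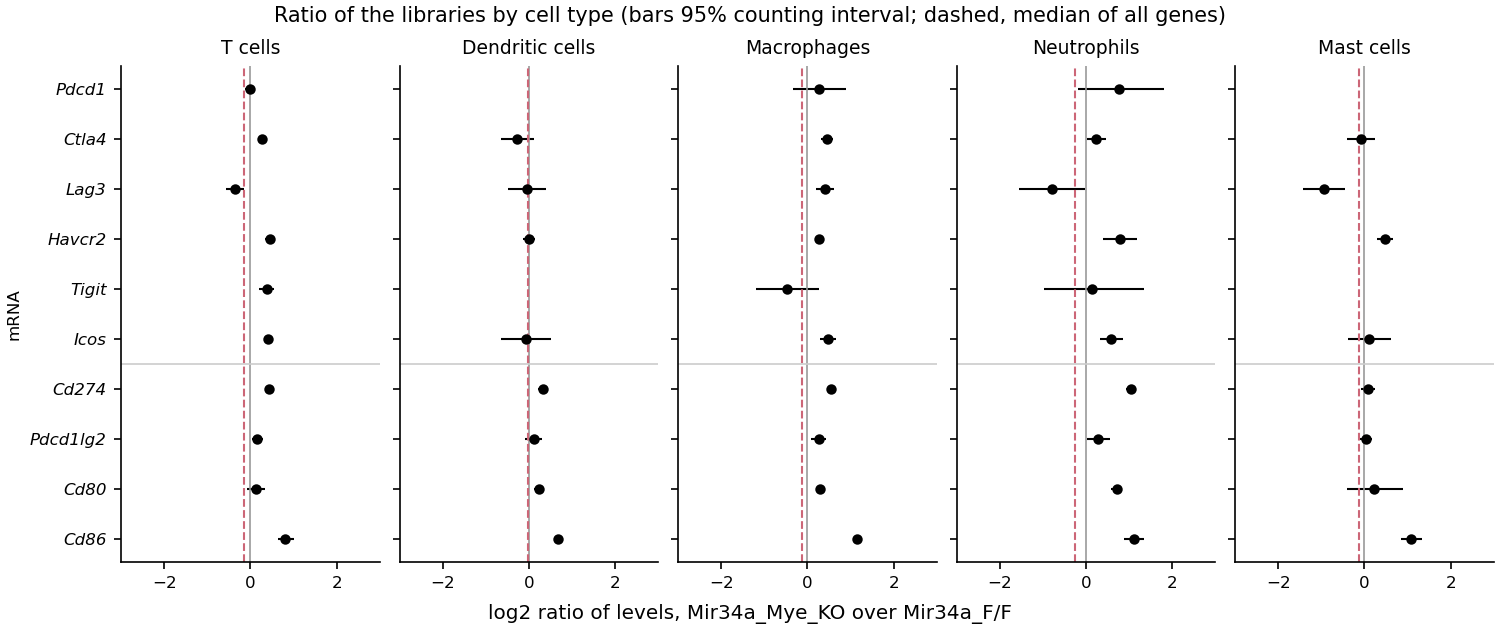
The log2 ratio of levels, Mir34a_Mye_KO over Mir34a_F/F, for members with at least 20 UMIs in the cell type, with 95% counting intervals and a dashed line at the median over all genes with at least 20 UMIs. *Cd86* has a positive ratio in all 5 cell types, from 0.68 to 1.16, and *Lag3* lies below 0 in T cells, neutrophils and mast cells.

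To place these ratios, they were set beside all genes with at least 20 UMIs in the cell type, of which most leaned to Mir34a_F/F. In T cells, 1 of 10 members (*Cd86*) had a log2 ratio of at least 0.5, as did 5.43% of 16361 genes, and 0 of 10 had a ratio of at most -0.5, as did 21.7% of genes. In dendritic cells it was 1 of 8 members (*Cd86*) beside 10.0% of 12304 genes, and 0 of 8 beside 15.3%. In macrophages it was 2 of 10 (*Cd86* and *Cd274*) beside 7.52% of 16710 genes, and 0 of 10 beside 19.2%. In neutrophils it was 6 of 10 (*Pdcd1*, *Havcr2*, *Icos*, *Cd274*, *Cd80* and *Cd86*) beside 8.35% of 13562 genes, and 1 of 10 (*Lag3*, from 31 UMIs in each library) beside 29.7%. The median log2 ratio of the members was 0.32, 0.06, 0.35 and 0.65 in these 4 cell types, against -0.14, -0.01, -0.13 and -0.26 over all genes. With 1 or 2 members past the threshold in T cells, dendritic cells and macrophages, nothing is read from the counts there. The neutrophil count includes *Pdcd1* with 13 and 38 UMIs and *Icos* at levels of 0.286 and 0.432. T-cell markers summed to 1.11 and 1.12 in neutrophils, beside 21.4 and 21.2 in T cells. The part of T-cell RNA in these 2 members was not tested, and nothing is read from the neutrophil count either.

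Other genes of the same pathways were measured for context. Their counts at or above 0.5 and at or below -0.5 are to be read beside the shares of all genes, 5.43% and 21.7% in T cells, 10.0% and 15.3% in dendritic cells, 7.52% and 19.2% in macrophages, and 8.35% and 29.7% in neutrophils. Of 13 further co-signalling receptors in T cells, 2 were above (*Cd28*, 0.56, and the CD155 receptor *Cd226*, 0.51) and none below, with a median of 0.30. Of 13 further ligands in T cells, 1 was above and 3 were below, with a median of -0.31 and a share below near that of all genes. In macrophages 4 of 12 ligands were above, among them *Tnfsf4* (0.89) and *Cd40* (0.79), a ligand and a receptor of costimulation. Another 3 of 12 were below, near the share of all genes, and the median of the list was -0.00. Of 13 receptors in macrophages, 2 were above and none below. In dendritic cells 2 of 10 receptors were above and 4 below, and 0 of 10 ligands were above and 2 below. *Cd28*, which was above, had only 12 and 49 UMIs in dendritic cells. In neutrophils 5 of 12 receptors were above and 2 below, and 0 of 10 ligands were above and 5 below. Of the receptors above, *Btla* (15 and 48 UMIs), *Cd226* (13 and 36) and *Cd40lg* (17 and 48) had few UMIs in Mir34a_F/F. The intervals of *Cd226* (-0.26 to 1.72) and *Cd40lg* (-0.11 to 1.60) included 0. Of the ligands below, *Tnfsf4* (13 and 7 UMIs) and *Cd40* (18 and 18) also had few. The difference between receptors and ligands was not tested. Among 10 regulators of T-cell activation and exhaustion, 3 were above in T cells (*Nr4a3*, 0.76, *Ikzf2*, 0.63, and *Nr4a2*, 0.54) and none below. The regulators above and below were 4 and 0 of 10 in macrophages, 0 and 1 of 8 in dendritic cells, and 4 and 0 of 9 in neutrophils. In T cells *Tox*, a driver of exhaustion, had a ratio of 0.46 and *Tcf7*, which maintains progenitor cells, of 0.28.

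**Figure D5:**
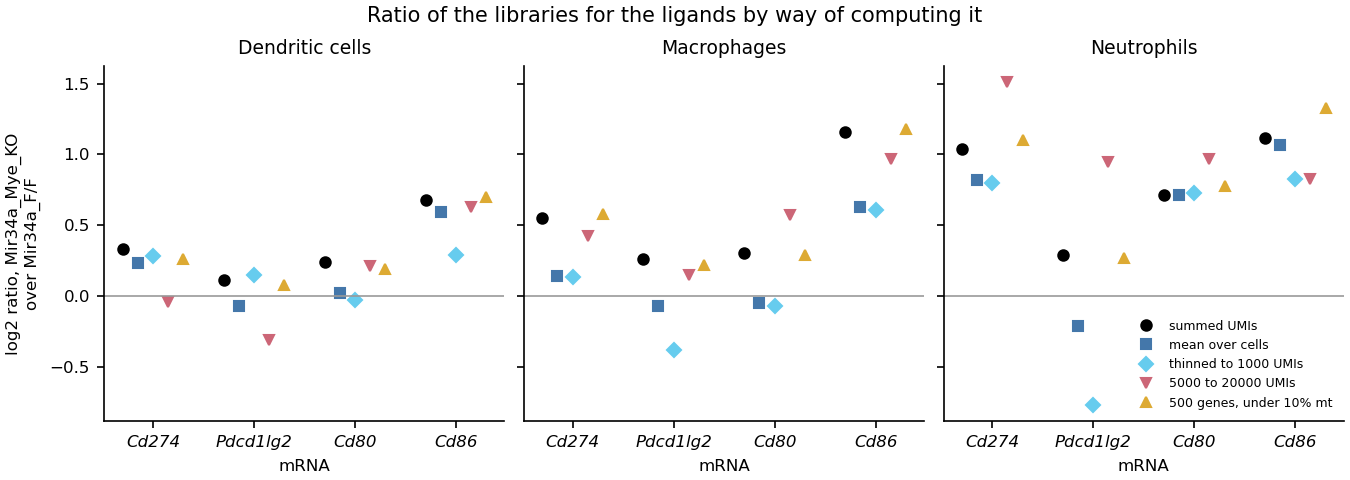
The log2 ratio of the libraries for the 4 ligands in dendritic cells, macrophages and neutrophils, computed from summed UMIs (circles), from the mean over cells (squares), after thinning to 1000 UMIs (diamonds), among cells of 5000 to 20000 UMIs (triangles pointing down) and among cells with at least 500 genes and under 10% mitochondrial UMIs (triangles pointing up). *Cd86* is positive throughout, *Cd274* and *Cd80* of neutrophils too, whereas *Pdcd1lg2* takes both signs in each cell type.

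The members were also compared by their pattern over the 22 levels. *Ctla4* and *Tigit* were most alike (Pearson r = 0.88), followed by *Ctla4* and *Icos* (0.83), and *Pdcd1* with *Ctla4* (0.82), *Tigit* (0.81) and *Icos* (0.81). Among ligands, *Cd274* and *Cd86* had r = 0.81, and *Cd274* had r = 0.75 with *Cd80* and with *Pdcd1lg2*. *Havcr2* was closer to *Pdcd1lg2* (0.78) and *Cd274* (0.65) than to *Icos* (0.22) or *Ctla4* (-0.08), and *Lag3* had r = 0.53 with *Havcr2*, 0.44 with *Pdcd1lg2*, 0.43 with *Pdcd1*, 0.37 with *Tigit* and 0.10 to 0.27 with the other 5 members. Of 16733 genes, the one most like *Ctla4* was its neighbour *Cd28* (0.944), and those most like *Icos* and *Cd274* were *Trbc2*, a T-cell receptor constant gene (0.946), and *Cd52* (0.943). *Havcr2* was closest to *Otulinl* (0.947), *Tigit* to *Tctex1d1* (0.947), *Cd80* to the myeloid kinase gene *Fgr* (0.934), *Lag3* to *Accs* (0.922), *Cd86* to *Plcg2* (0.908) and *Pdcd1lg2* to *Laptm5* (0.883). These correlations describe levels that share libraries and depth. They include levels from few or no UMIs, such as *Tigit* with 0 UMIs in basophils and erythroid cells of both libraries. The part of such values in the correlations was not tested.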

How the data were processed

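CACs of Mir34a_F/F and Mir34a_Mye_KO mice were analyzed by 10x single-cell RNA sequencing, 1 library per genotype. Per the methods, the authors aligned and counted reads with Cell Ranger 7.2.0 (mm10), applied limits of above 200 detected mRNAs and below 25% mitochondrial RNA to each cell, and ran Scrublet against doublets. The deposited values are Seurat's log normalization, the natural log of 1 plus UMIs per 10000. Library and cell type were taken from the deposited annotation. Of the deposited cells, 12.2% (Mir34a_F/F) and 22.2% (Mir34a_Mye_KO) were at or above 25% mitochondrial UMIs. The 38883 cells were used as deposited, and no doublet caller was run.

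The log was undone and values were divided by the smallest of each cell, which gave whole UMIs (largest deviation 1.5e-10). Intervals were exact (Poisson, binomial, and conditional binomial for ratios). No test between genotypes was possible with 1 library each. Background types were epithelial cells, and erythroid cells for *Cd274*. Members, lists and groups were chosen with earlier results of these data known, and the *Sdc1* or *Prdm1* split and the depth range of 5000 to 20000 UMIs after values were seen. Named genes are the members, genes of the pathway lists and the 3 mRNAs most like each member, of which the first is given, by Pearson correlation of log2(level + 0.01) among genes with at least 200 UMIs. Alternatives were the mean over cells, thinning to 1000 UMIs, totals without 411 genes, cells with at least 500 genes and under 10% mitochondrial UMIs, cells with a marker of their type, background subtraction, the depth range and gates of at least 2 UMIs. Calculations were tested on simulated data. The simulated counts were Poisson, as the intervals assume, so UMIs gathered in single cells were not covered. Python 3.11.15, numpy, scipy, pandas and matplotlib were used.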

Additional observations from a re-analysis of the deposited data

Results flagged for a closer look

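Members with at least 20 UMIs in each library whose ratio of the libraries, as log2 of Mir34a_Mye_KO over Mir34a_F/F, had a counting interval off 0 in opposite directions in different cell types are given here. These differences between cell types were not tested, since there is 1 library per genotype. *Lag3* was higher in Mir34a_Mye_KO in macrophages (0.41) and lower in T cells (-0.35), neutrophils (-0.78), mast cells (-0.94) and epithelial cells (-0.71). *Pdcd1lg2* was higher in T cells (0.16), macrophages (0.26), neutrophils (0.29) and epithelial cells (0.23) and lower in B cells (-0.62). *Cd86* was higher in T cells (0.81), dendritic cells (0.68), macrophages (1.16), neutrophils (1.12), mast cells (1.08) and epithelial cells (0.92) and lower in B cells (-0.22). The values of *Lag3* in macrophages, of *Pdcd1lg2* in macrophages, neutrophils and B cells, and of *Cd86* in B cells changed sign under other settings, given below.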

How the results depend on the processing

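All values are log2 ratios of Mir34a_Mye_KO over Mir34a_F/F unless stated. Of 463 alternative values of 100 results, 301 stayed within the counting interval of the reported value, 140 moved outside it and 22, whose reported interval excluded 0, changed sign. The causes of the moves were not tested.

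With the mean over cells, *Ctla4* in T cells was 0.18, *Pdcd1lg2* in mast cells 0.21, *Cd80* in dendritic cells 0.02, *Lag3* in macrophages -0.06, *Pdcd1lg2* in macrophages -0.07 and in neutrophils -0.21, *Cd80* in macrophages -0.05 and *Cd86* in B cells 0.25. After thinning to 1000 UMIs, these were *Ctla4* 0.13 and *Icos* 0.30 in T cells, *Cd80* -0.03 and *Cd86* 0.29 in dendritic cells, *Cd86* in B cells 0.23 and *Pdcd1lg2* in neutrophils -0.77. In thinned macrophages *Lag3* was -0.77, *Havcr2* -0.05, *Icos* -0.16, *Pdcd1lg2* -0.38 and *Cd80* -0.07. Without the 411 genes in the totals, *Ctla4* in T cells was 0.32, *Icos* 0.47 and *Cd86* in B cells 0.06. With at least 500 genes and under 10% mitochondrial UMIs, *Ctla4* in T cells was 0.31.

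Among cells of 5000 to 20000 UMIs, chosen after seeing the data, T cells gave *Pdcd1* 0.29, *Ctla4* 0.40, *Lag3* -0.58 and *Icos* 0.67, dendritic cells *Havcr2* -0.61 and *Cd274* -0.04, macrophages *Ctla4* -0.04 and *Lag3* -0.16, and neutrophils *Ctla4* -0.13. B cells gave *Ctla4* -1.0, *Cd274* -0.14, *Pdcd1lg2* 1.47 and *Cd86* 3.45. With gates of at least 2 UMIs, the log2 ratio of *Foxp3*-positive over CD4 cells was 0.24 for *Ctla4* and -0.28 for *Havcr2* in Mir34a_F/F, and 0.61 for *Ctla4* and 0.01 for *Icos* in Mir34a_Mye_KO.

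Depth limits *Tigit* and *Pdcd1* in myeloid cells and every member in basophils, fibroblasts, endothelial and erythroid cells. With 3 pooled mice in 1 library per genotype, genotype and library cannot be told apart. No paired analysis was possible because there is 1 library per genotype.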
